A study of Mus musculus with 29 samples.

Results

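Bsn, Syn1, Vamp2, Snap91, Nsf and Madd encode proteins of the presynaptic terminal, the part of an axon from which neurotransmitter is released. They were followed across every library of a mouse RNA-seq study of reporter-positive cells, sorted from 2 brain regions, the amygdala and medial prefrontal cortex. The 6 genes were picked by name from 10678 genes measured in at least one region, and their rows were matched by stable gene identifier. They were picked with earlier results of these libraries known, the amygdala comparison of Sus-T with Res-T without trauma among them. All 6 had a row among the 9872 amygdala genes, and 3 of them, Vamp2, Nsf and Madd, had a row among the 6080 prefrontal genes.

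In both regions the mice carried the Thy1-YFP transgene B6.Cg-Tg(Thy1-YFP)HJrs/J, in which the Thy1 promoter drives a yellow fluorescent protein in a subset of neurons, and every group shared it. The groups were Sus-T with trauma, Res-T with trauma, Sus-T without trauma and Res-T without trauma; the labels spelled out neither Sus-T nor Res-T and gave no age. The amygdala libraries numbered 4, 4, 2 and 3 in that order, and the prefrontal libraries 4, 3, 2 and 4. The labels described 29 samples, of which 13 amygdala and 13 prefrontal libraries were analysed here. For the amygdala the series design gave a number of 9 mice against 13 libraries, and no label tied a library to an animal, so the p-values below measure the spread between libraries and some libraries may share a mouse.

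Neurotransmitter release runs through a cycle. Vesicles tethered by synapsins are drawn from a reserve, docked at the active zone by large scaffold proteins and Rab3 proteins, fused with the membrane by SNARE proteins, and taken back into the terminal by clathrin-mediated endocytosis. Bsn encodes Bassoon, a very large scaffold of the active zone. Syn1 encodes synapsin I, a phosphoprotein that tethers vesicles to each other and to actin. Vamp2 encodes the vesicle SNARE synaptobrevin, and Nsf encodes the ATPase that takes used SNARE complexes apart. Snap91 encodes AP180, a clathrin assembly protein that recruits synaptobrevin into new vesicles. Madd encodes a nucleotide exchange factor that activates Rab3.

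Values are the deposited signal in arbitrary units, already normalized by the authors, and levels of different genes are not compared. Library totals lay between 3267967 and 4021272 for amygdala libraries and between 2095138 and 2444486 for prefrontal ones, and read depth is unknown. The sorted cells were labelled as pyramidal neurons. Of 12 pyramidal neuron markers, 3 were measured in the amygdala (Bhlhe22, Camk2n1 and Nrgn) and 0 in the prefrontal cortex, and of 12 pan-neuronal markers 6 and 0 were measured. Oligodendrocyte markers, genes of myelin-forming cells, were measured for 19 of 20 in amygdala tables and 13 of 20 in prefrontal ones, and they made up between 2.04% and 9.25% of a library's total. On the scale of log2(signal − 1), the deposited values lacked 1 dimension (amygdala) and 2 (prefrontal cortex) beyond what centring removes. Their spread, and with it the p-values, may therefore be too low. The 3 amygdala Res-T libraries without trauma had squared weights of at most 0.0002 in the missing dimension, against 0.0074 to 0.2731 in the other amygdala libraries. Prefrontal Res-T with trauma replicate 1 had a weight of 0.7312 in the missing dimensions, the highest of the prefrontal libraries, and prefrontal Res-T without trauma replicate 4 had 9.25% of its total in oligodendrocyte markers, against 3.47% to 4.15% in the other 3 libraries of its group.

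The genes lie on 4 chromosomes of GRCm38.p6 in the GENCODE M21 annotation. They are Bsn on the minus strand at chr9:108096022-108190384, Syn1 on the minus strand at chrX:20860511-20921004, Vamp2 on the plus strand at chr11:69088490-69092384, Snap91 on the minus strand at chr9:86765923-86880654, Nsf on the minus strand at chr11:103821782-103954056 and Madd on the minus strand at chr2:91137360-91183837. All are protein coding. Syn1 shares 9 exonic bases with Araf on the opposite strand, and Bsn shares 57 with the predicted gene Gm47303 on its own strand; whether counting used strand is not given in the sources used here.

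Promoters of 4 of the genes are shown because in each the amygdala Res-T libraries without trauma lay below every other library. Vamp2 showed the same, but no promoter was matched to it. How many of all genes showed this pattern was not counted. It comes from libraries that took part in choosing the genes, so it is a description only. Each window shown is the 300 bases from 250 before to 50 after the start of the gene in RefSeq on GRCm38.p6, where 5 of the 6 genes were matched. Bsn lies at chr9:108190334-108190633, Syn1 at chrX:20920869-20921168, Snap91 at chr9:86880659-86880958 and Nsf at chr11:103954007-103954306, all on the minus strand and written 5′ to 3′. Capitals mark matches on either strand to the GC box GGGCGG, the cyclic AMP response element TGACGTCA, and the left part CAGCACC and right part GGACAGC of the element bound by the repressor REST.
Bsn: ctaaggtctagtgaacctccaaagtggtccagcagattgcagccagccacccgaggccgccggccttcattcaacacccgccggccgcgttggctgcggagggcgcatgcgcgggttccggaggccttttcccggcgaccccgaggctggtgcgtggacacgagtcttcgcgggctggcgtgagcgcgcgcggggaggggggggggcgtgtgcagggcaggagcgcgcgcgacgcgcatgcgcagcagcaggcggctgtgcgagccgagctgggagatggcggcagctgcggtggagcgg
Syn1: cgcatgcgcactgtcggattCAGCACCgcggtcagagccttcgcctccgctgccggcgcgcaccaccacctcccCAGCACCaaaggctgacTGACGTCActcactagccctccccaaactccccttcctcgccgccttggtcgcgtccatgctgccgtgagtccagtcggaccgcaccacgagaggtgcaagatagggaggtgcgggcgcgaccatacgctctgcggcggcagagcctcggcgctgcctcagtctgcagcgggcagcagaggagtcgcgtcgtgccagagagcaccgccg
Snap91: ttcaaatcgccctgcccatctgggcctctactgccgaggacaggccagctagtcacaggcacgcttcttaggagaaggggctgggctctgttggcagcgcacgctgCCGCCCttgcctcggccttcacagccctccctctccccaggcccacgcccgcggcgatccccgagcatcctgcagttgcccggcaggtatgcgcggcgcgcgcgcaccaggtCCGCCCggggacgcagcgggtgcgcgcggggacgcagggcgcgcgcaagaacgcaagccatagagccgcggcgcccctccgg
Nsf: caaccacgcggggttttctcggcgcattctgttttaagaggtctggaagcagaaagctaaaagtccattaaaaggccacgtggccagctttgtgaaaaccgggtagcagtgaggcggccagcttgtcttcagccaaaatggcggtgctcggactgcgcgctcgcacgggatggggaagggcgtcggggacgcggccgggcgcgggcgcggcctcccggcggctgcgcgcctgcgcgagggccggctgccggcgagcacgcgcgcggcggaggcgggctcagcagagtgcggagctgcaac

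The Syn1 promoter held 1 match to TGACGTCA, beginning at −159 from the start, and 2 matches to CAGCACC, at −230 and −176. Among 32851 mouse promoters of the same length, 1.79% held TGACGTCA and 7.14% held CAGCACC. The Snap91 promoter held 2 matches to GGGCGG, at −144 and −32, a motif present in 35.7% of promoters. The Bsn and Nsf windows held 0 matches to these letters or to GGACAGC, which 6.56% of promoters held. All 4 windows were rich in G and C, at 72.3% in Bsn, 68.3% in Syn1, 72.0% in Snap91 and 67.7% in Nsf, against a median of 52.7% over all promoters, while the 2 windows listed for Madd, not shown, had 54.0% and 48.7%. CpG dinucleotides numbered 38 in Bsn, 33 in Syn1, 35 in Snap91 and 38 in Nsf, against 13 and 7 in the windows of Madd and a median of 7 overall. The Madd windows held 1 match each to GGGCGG, and the second also held 1 to GGACAGC. Whether promoter composition goes with the amygdala values was not tested, and Vamp2 has no window here. Matches describe the letters of these windows and identify no binding.

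In the amygdala all 6 genes had their lowest mean in Res-T libraries without trauma. Without trauma, each gene was higher in every Sus-T library than in every Res-T library, by 2.78-fold for Madd up to 15.3-fold for Bsn. These fold changes took part in choosing the genes and are given as a description with no test. Groups that did not overlap in this direction made up 27.7% of all amygdala genes (31.3% in the opposite direction), and 12.4% of all genes passed limma's threshold in this direction. With trauma the 6 differences between Sus-T and Res-T all had the same sign and were smaller in value, with log2 changes between 0.21 and 1.66, a reduction that was not tested for these genes. Log2 changes here are Sus-T minus Res-T, or with minus without trauma, on the scale of log2(signal + 1), each with its standard error (SE). In sorted bulk libraries, fewer cells of a type and less RNA per cell cannot be told apart.

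**Figure D1:**
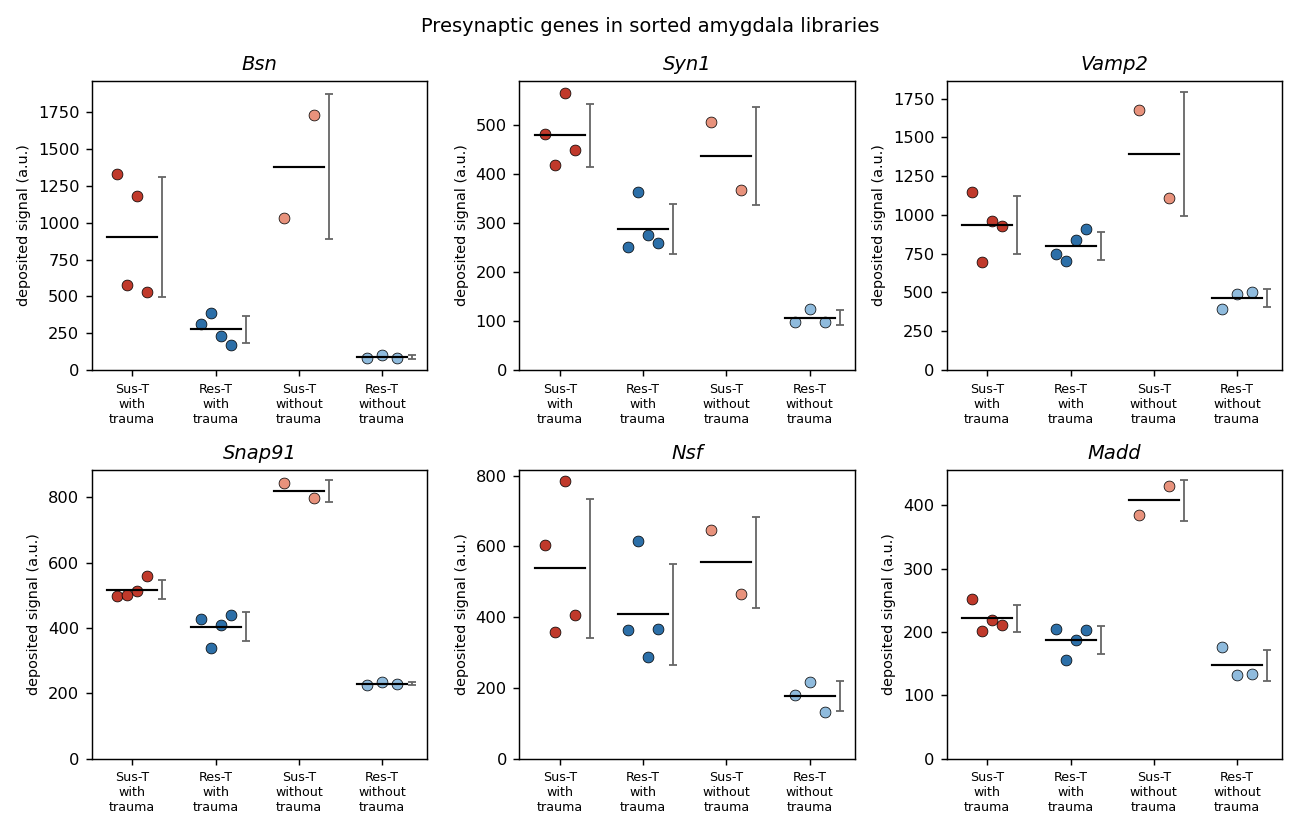
Deposited signal (arbitrary units, vertical axis from 0) of the 6 presynaptic genes in 13 amygdala libraries, 1 point per library, in the 4 groups from left to right. Horizontal lines are group means and vertical bars the SD; the 3 Res-T libraries without trauma lie below the 2 Sus-T libraries without trauma in each of the 6 panels.

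The active zone scaffold gene Bsn varied most, 22.2-fold between its highest and lowest amygdala library. In the Sus-T libraries with trauma its signal was 1329, 580.4, 1181 and 529.8, and in the Res-T libraries with trauma 314, 385, 233 and 169.8. The Sus-T libraries without trauma had 1033 and 1729, and the Res-T libraries without trauma 83.5, 99.8 and 78.0. Each Sus-T group lay above the Res-T group of the same condition, and only the pair of Sus-T groups overlapped. Without trauma the means were 1381 ± 492 in Sus-T and 87.1 ± 11.4 in Res-T (SD, n = 2 and 3), a log2 change of 3.93 ± 0.39. With trauma they were 905 ± 409 in Sus-T and 276 ± 93.9 in Res-T (SD, n = 4 each), a log2 change of 1.66 ± 0.30 that did not pass the threshold of 0.05 (adjusted p = 0.0724, limma with Benjamini-Hochberg adjustment over all genes). It passed without Res-T with trauma replicate 2 (log2 1.84, limma adjusted p = 0.0465) and without Sus-T with trauma replicate 4 (log2 1.88, limma adjusted p = 0.0204), so single libraries decide this call; over all single-library omissions the limma adjusted p ran up to 0.187. In the fits without those libraries 0.122% and 0.101% of all genes were called higher. Members were chosen with earlier results of this comparison known too, so this p and those of the other members are no independent support.

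Syn1, the vesicle-tethering phosphoprotein, had 481.5, 418, 565 and 447 in Sus-T with trauma and 251, 362.5, 275.5 and 259 in Res-T with trauma. Its Sus-T libraries without trauma had 506 and 366, and its Res-T libraries without trauma 98.0, 124 and 97.0. The Res-T libraries without trauma stood apart from all others, and the Sus-T groups overlapped each other but not the Res-T groups. The gap was narrow, since the lowest Sus-T library without trauma, at 366.0, lay next to the highest Res-T library with trauma, at 362.5. The log2 change was 2.02 ± 0.24 without trauma. With trauma it was 0.74 ± 0.18 (1.67-fold, limma adjusted p = 0.129).

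The vesicle SNARE gene Vamp2 had 1151, 699, 958.5 and 928 in Sus-T with trauma and 747, 705, 838 and 909 in Res-T with trauma. These groups overlapped, and the log2 change was 0.21 ± 0.18 (limma adjusted p = 0.702). Without trauma it had 1677 and 1111 in Sus-T and 395.5, 489.7 and 501 in Res-T, a log2 change of 1.57 ± 0.23. All 3 Res-T libraries without trauma lay below every other amygdala library.

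Nsf, the ATPase that recycles SNARE complexes, was the gene with the widest spread within groups after Bsn, with a coefficient of variation of up to 36.4%. Its signal was 605, 357, 784 and 405.5 in Sus-T with trauma and 363, 616, 286 and 365 in Res-T with trauma. These groups overlapped widely (log2 change 0.39 ± 0.27, limma adjusted p = 0.606). Without trauma it was 645 and 464 in Sus-T and 179, 218 and 132 in Res-T, a log2 change of 1.66 ± 0.35. The Res-T libraries without trauma again formed the only group that overlapped no other.

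Snap91, the clathrin assembly gene, was the most even within groups, with coefficients of variation between 1.89% and 11%. It had 497, 500.1, 514 and 558 in Sus-T with trauma and 427, 339, 409 and 439 in Res-T with trauma. Without trauma it had 843 and 797 in Sus-T and 226, 234 and 227 in Res-T. None of the 4 groups overlapped, and their order from high to low was Sus-T without trauma, Sus-T with trauma, Res-T with trauma and Res-T without trauma. The log2 change was 1.84 ± 0.19 without trauma. With trauma it was 0.36 ± 0.14 (1.29-fold, limma adjusted p = 0.331).

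Madd, the Rab3 activator, had 252.5, 202, 219 and 212 in Sus-T with trauma and 204, 156, 188 and 203 in Res-T with trauma. These groups overlapped (log2 change 0.24 ± 0.18, limma adjusted p = 0.638). Without trauma it had 385 and 431 in Sus-T and 176, 133 and 133 in Res-T, a log2 change of 1.47 ± 0.23. Its Sus-T libraries without trauma lay above all others, and its Res-T groups overlapped each other.

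With trauma, then, 0 of the 6 genes passed limma's adjusted threshold between Sus-T and Res-T, as did 0% of all amygdala genes. At an unadjusted p under 0.05, 3 of the 6 (Bsn, Syn1 and Snap91) and 11.6% of all genes stood. The same 3 genes were higher in every Sus-T library with trauma than in every Res-T library with trauma, as were 3.46% of all genes (2.29% were lower in every one).

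Trauma was set against its absence within Res-T and within Sus-T mice, and these comparisons share libraries with the one that chose the genes, so they are described with no test. In Res-T mice 5 of the 6 genes were higher in every library with trauma than in every library without, as were 9.68% of all amygdala genes. Bsn averaged 276 ± 93.9 with trauma and 87.1 ± 11.4 without (SD, n = 4 and 3), a log2 change of 1.59 ± 0.33, and Syn1 averaged 287 ± 51.4 with trauma and 106 ± 15.4 without, a log2 change of 1.42 ± 0.20. The log2 changes of Nsf, Snap91 and Vamp2 were 1.18 ± 0.29, 0.81 ± 0.16 and 0.79 ± 0.19. Madd, at 0.35 ± 0.19, was the gene whose Res-T groups overlapped.

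In Sus-T mice the amygdala picture was mixed. Snap91 averaged 517.5 ± 28.3 with trauma and 820 ± 32.9 without (SD, n = 4 and 2), and Madd 221 ± 21.9 with trauma and 408 ± 32.4 without. These 2 genes were lower in every library with trauma, as were 7.77% of all genes. The log2 changes were −0.66 ± 0.18 for Snap91, −0.88 ± 0.22 for Madd, −0.68 ± 0.37 for Bsn and −0.57 ± 0.22 for Vamp2, while Nsf at −0.10 ± 0.33 and Syn1 at 0.14 ± 0.22 lay near 0 and changed sign when single libraries were left out. The trauma effect in Sus-T minus that in Res-T was negative for all 6 genes, between −1.23 ± 0.29 for Madd and −2.27 ± 0.50 for Bsn.

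**Figure D2:**
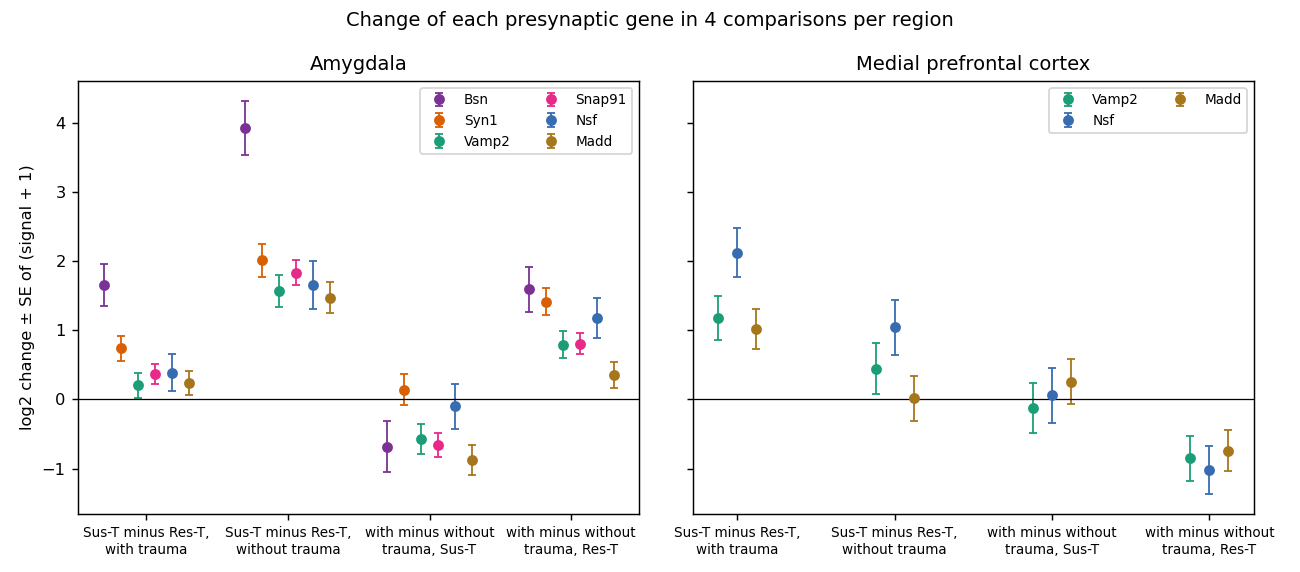
Log2 change of each presynaptic gene with its SE (vertical axis, from limma on log2(signal + 1)) in 4 comparisons per region, amygdala left and prefrontal cortex right. In the amygdala the 6 differences between Sus-T and Res-T without trauma run from 1.47 to 3.93 and those with trauma from 0.21 to 1.66.

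Markers of other cell types differed between the same amygdala libraries. Oligodendrocyte markers made up 2.04% and 3.06% of the total in Sus-T without trauma and 6.60% to 7.72% in Res-T without trauma, and 17 of 19 were lower in Sus-T by limma, with 0 higher. With trauma they made up 4.25% to 5.56% in Sus-T and 4.89% to 6.16% in Res-T, and 0 of 19 passed (1 at an unadjusted p under 0.05). Astrocyte markers made up 1.10% and 2.04% in Sus-T without trauma and 0.356% to 0.535% in Res-T without trauma, with 5 of 13 higher. Neuronal markers differed as well, with 4 of 6 pan-neuronal markers higher and 1 lower, at 0.189% and 0.221% of the total in Sus-T without trauma and 0.0586% to 0.0701% in Res-T without trauma. The 3 measured pyramidal neuron markers made up 0.0439% and 0.0555% in Sus-T without trauma and 0.00389% to 0.00605% in Res-T without trauma, with 2 of 3 higher. All 3 measured microglia markers of 12 were higher, at 0.0221% and 0.0273% in Sus-T without trauma against 0.00597% to 0.00934% in Res-T. Of 6 oligodendrocyte precursor markers 4 were lower and 1 higher. Of 3 GABAergic interneuron markers 1 was lower, and of 5 endothelial and mural markers 1 was higher and 1 lower. Over all genes 12.4% were called higher and 15% lower in this comparison. With trauma, pan-neuronal markers summed to 0.146% to 0.193% in Sus-T and 0.0659% to 0.122% in Res-T, sums that did not overlap. Taken singly, 1 of the 6 was higher in every Sus-T library and 0 were lower in every one. Of all genes 3.46% and 2.29% were so. By limma 0 of the 6 passed (1 at an unadjusted p under 0.05). Astrocyte markers made up 0.781% to 1.67% in Sus-T with trauma and 0.342% to 0.91% in Res-T with trauma, with 0 of 13 passing (4 at an unadjusted p under 0.05). Pyramidal neuron markers made up 0.0275% to 0.12% in Sus-T with trauma and 0.0129% to 0.0292% in Res-T with trauma, with 0 of 3 passing (2 at an unadjusted p under 0.05).

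Markers moved with the amygdala trauma effects too. For trauma in Res-T, 2 of 6 pan-neuronal markers were called higher and 2 of 19 oligodendrocyte markers lower by limma. In the same comparison 1 of 3 pyramidal neuron and 1 of 13 astrocyte markers were called higher, and 1 of 6 oligodendrocyte precursor markers lower. Of all genes 3.3% were called higher and 2.88% lower. For trauma in Sus-T, 18 of 19 oligodendrocyte markers were higher in every library with trauma than in every library without, against 12.6% of all genes, and 1 was called. For the difference between the trauma effects, 17 of 19 oligodendrocyte markers were called higher, with a median log2 value of 1.78 over the 19, and 1 of 6 pan-neuronal markers was called lower. Of 6 oligodendrocyte precursor markers 2 were called higher, and of 5 endothelial and mural markers 1 was called lower. Over all genes 4.76% were called higher and 1.98% lower. The part of these cell types in the differences of the presynaptic genes was not tested.

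**Figure D3:**
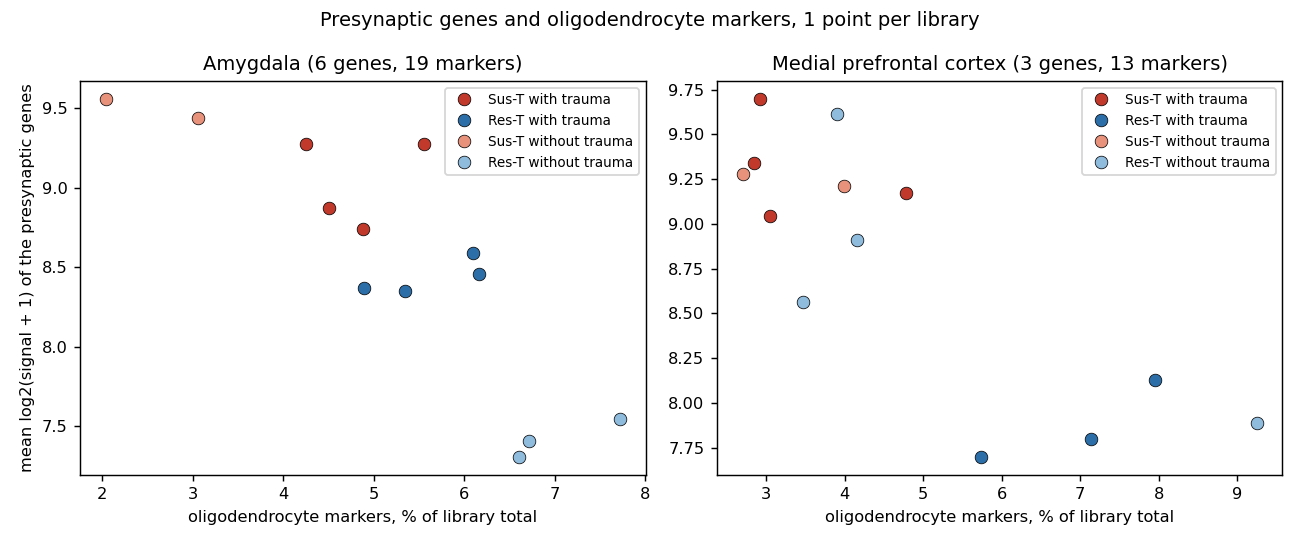
Mean log2(signal + 1) of the presynaptic genes (vertical axis) against the summed oligodendrocyte markers in percent of the library total (horizontal axis), 1 point per library, coloured by group, 6 genes for the amygdala and 3 for the prefrontal cortex. The Res-T libraries without trauma lie at 6.60% to 7.72% in the amygdala, where the mean of the genes is lowest.

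In the prefrontal cortex Vamp2, Nsf and Madd were higher in Sus-T with trauma than in Res-T with trauma, and all 3 passed limma's threshold, as did 14% of all prefrontal genes in this direction. In all 3 every Sus-T library lay above every Res-T library, as for 24.4% of all genes (16.3% in the opposite direction). The median log2 change of all genes was 0.147 in this comparison, and under quantile normalization the 3 genes kept their direction and stayed past the threshold. The genes were chosen with earlier results of these libraries known. Their prefrontal p-values, here and below, are therefore no independent support.

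**Figure D4:**
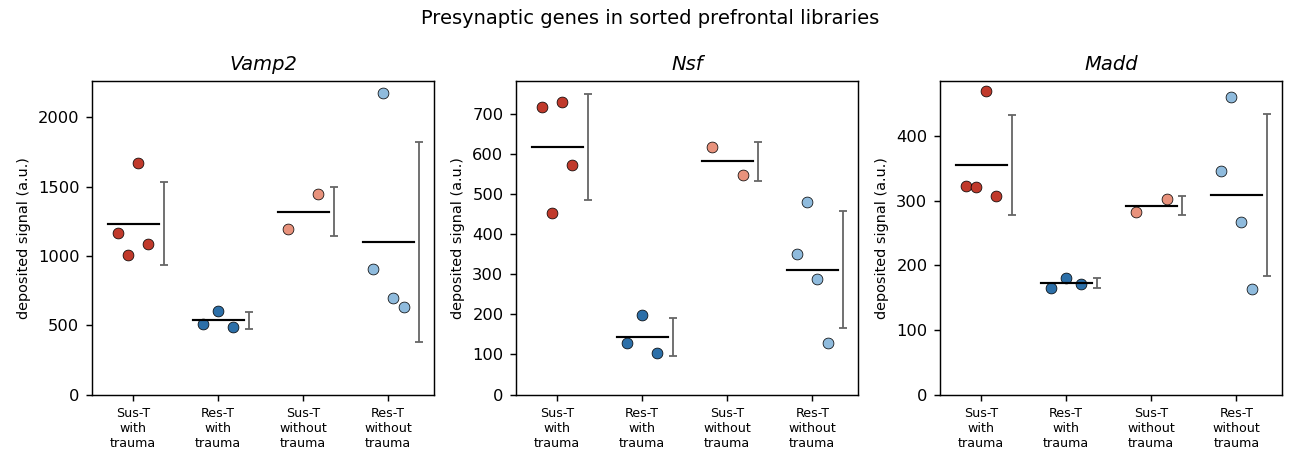
Deposited signal (arbitrary units, vertical axis from 0) of Vamp2, Nsf and Madd in 13 prefrontal libraries, 1 point per library, in the 4 groups from left to right, with group means as horizontal lines and SD as vertical bars. The 3 Res-T libraries with trauma lie below the 4 Sus-T libraries with trauma in every panel, and the 4 Res-T libraries without trauma are widely spread.

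Nsf showed the largest prefrontal change of the 3 genes. It had 717, 452, 728 and 571 in Sus-T with trauma and 127.5, 197 and 105 in Res-T with trauma. The means were 617 ± 131 in Sus-T and 143 ± 48.1 in Res-T (SD, n = 4 and 3), a 4.36-fold difference (log2 2.12 ± 0.35, limma adjusted p = 0.00172). Every omission of a single library left this call standing, with log2 changes between 1.93 and 2.38. Without trauma it had 616 and 547.5 in Sus-T and 351, 479, 288 and 128 in Res-T. These groups did not overlap either, which held for 8.16% of all genes in this direction and 6.74% in the other, but the log2 change of 1.05 ± 0.40 did not pass (limma adjusted p = 0.404).

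Vamp2 had 1164, 1007, 1668 and 1087 in Sus-T with trauma and 512, 604 and 489.8 in Res-T with trauma, a 2.26-fold difference (log2 1.18 ± 0.32, limma adjusted p = 0.0159). Madd had 323, 320.3, 469 and 307 in Sus-T with trauma and 166, 181 and 171 in Res-T with trauma, a 2.02-fold difference (log2 1.01 ± 0.29, limma adjusted p = 0.0199). Both genes separated the groups, and both calls rested on single libraries. Without Res-T with trauma replicate 1, which carried the weight of 0.7312 above, the limma adjusted p was 0.0583 for Vamp2 and 0.0748 for Madd. It was 0.0625 and 0.0644 without Res-T with trauma replicate 4, and 0.0524 and 0.066 without Sus-T with trauma replicate 3.

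Without trauma neither gene separated the prefrontal groups. Vamp2 had 1193 and 1445 in Sus-T without trauma and 909, 2171, 694 and 629.8 in Res-T without trauma (log2 change 0.45 ± 0.36, limma adjusted p = 0.699). Madd had 282 and 302.5 in Sus-T without trauma and 345, 460.1, 267 and 163 in Res-T without trauma (log2 change 0.02 ± 0.33, limma adjusted p = 0.994). In Res-T without trauma replicate 2 was the highest and replicate 4 the lowest for all 3 genes. Of the 3 genes, 1 stood at an unadjusted p under 0.05 without trauma, against 10.4% of all genes, and 0% of all genes passed the adjusted threshold.

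Trauma in Res-T went with lower prefrontal values that did not pass the threshold. The log2 changes with minus without trauma were −0.85 ± 0.32 for Vamp2, −1.02 ± 0.35 for Nsf and −0.74 ± 0.29 for Madd (limma adjusted p = 0.253, 0.221 and 0.264), and all 3 stood at an unadjusted p under 0.05, as did 14.8% of all genes. Vamp2 was lower in every Res-T library with trauma than in every one without, as were 7.88% of all genes (5.2% were higher). Without Res-T without trauma replicate 4, the library rich in oligodendrocyte markers, all 3 passed: the log2 changes were then −1.06, −1.39 and −1.01, with limma adjusted p = 0.0444, 0.00749 and 0.0197. In that fit 7.29% of all prefrontal genes were called lower and 2.38% higher. In Sus-T the changes with trauma were −0.12 ± 0.36 for Vamp2, 0.06 ± 0.40 for Nsf and 0.26 ± 0.33 for Madd (limma adjusted p = 1.0 each, 0 of 3 at an unadjusted p under 0.05, against 1.5% of all genes). Madd was higher in every Sus-T library with trauma, as were 4.42% of all genes (3.6% were lower). The trauma effect in Sus-T minus that in Res-T was 0.73 ± 0.49 for Vamp2, 1.08 ± 0.53 for Nsf and 0.998 ± 0.44 for Madd (limma adjusted p = 0.8, 0.774 and 0.774), with 1 of 3 at an unadjusted p under 0.05, as for 6.1% of all genes.

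Prefrontal oligodendrocyte markers made up 2.84% to 4.78% of the total in Sus-T with trauma and 5.73% to 7.95% in Res-T with trauma, and 10 of 13 were lower in Sus-T by limma, with 0 higher. They made up 2.70% and 3.99% in Sus-T without trauma and 3.47% to 9.25% in Res-T without trauma, where 0 of 13 passed (2 at an unadjusted p under 0.05). Astrocyte markers overlapped, at 0.160% to 0.641% in Sus-T with trauma and 0.154% to 0.596% in Res-T with trauma, with 0 of 7 passing and 0 at an unadjusted p under 0.05. With trauma 1 of 3 measured oligodendrocyte precursor markers was called higher in Sus-T, and the 1 measured GABAergic interneuron marker did not pass. The part of these cells in the prefrontal differences was not tested.

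The other genes of the release cycle were read from a list of 108 genes by role, of which 68 were measured in amygdala libraries and 42 in prefrontal ones. This list too was chosen with earlier results of these data known. Its counts and p-values, here and below, are therefore no independent support for the members. Without trauma, 27 of the 68 were higher and 8 lower in Sus-T than in Res-T amygdala libraries, against 12.4% and 15% of all genes. Their median log2 change was 0.43, against −0.03 over all genes. Without Sus-T without trauma replicate 1 the count was 17 higher and 5 lower. Syn2 and Napb, close relatives of Syn1 and of the partners of Nsf, were not analysed here. Averages of listed genes are given as mean ± SD over the libraries of a group. Without trauma the amygdala groups held 2 Sus-T and 3 Res-T libraries, so an SD in Sus-T rests on 2 values.

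Among the active zone scaffold genes 8 of 12 were higher and 0 lower. Ppfia4, a liprin, averaged 149 ± 100.9 in Sus-T and 18.5 ± 8.16 in Res-T (7.28-fold, limma adjusted p = 3.96e-04), and its relative Ppfia2 269 ± 11.2 in Sus-T and 96.3 ± 24.3 in Res-T (limma adjusted p = 9.17e-04). Rims2, which links vesicles to calcium channels, rose 2.22-fold (limma adjusted p = 0.0064). Pclo, the relative of Bsn that encodes Piccolo, rose 1.78-fold, at 2002 ± 579 in Sus-T and 1107 ± 158.5 in Res-T (limma adjusted p = 0.0107), against the 15.3-fold difference of Bsn.

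Among the SNARE genes 6 of 12 were higher and 0 lower. Stxbp5l, a tomosyn, rose 3.42-fold (limma adjusted p = 0.00141). The relatives of Vamp2 and Nsf did not pass: Vamp1 averaged 92.1 ± 15.9 in Sus-T and 98.5 ± 14.9 in Res-T, Napa 398 ± 25.1 in Sus-T and 481.5 ± 51.0 in Res-T, and Napg 331 ± 37.1 in Sus-T and 247 ± 13.9 in Res-T (limma adjusted p = 0.844, 0.391 and 0.132).

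Among vesicle proteins 0 of 7 were higher and 2 were lower: Syt11, a synaptotagmin that lacks calcium binding, at 2567 ± 530 in Sus-T and 5081 ± 794 in Res-T (limma adjusted p = 0.00107), and Sv2a at 475 ± 90.3 in Sus-T and 960 ± 178 in Res-T (limma adjusted p = 0.00901). Syn3, the measured relative of Syn1, averaged 44.4 ± 1.16 in Sus-T and 54.8 ± 19.8 in Res-T (limma adjusted p = 0.683). Endocytosis genes moved both ways, with 11 of 28 higher and 5 lower. Epn1, an epsin, rose 3.35-fold, Ap2a2, a subunit of the clathrin adaptor AP-2, rose 2.63-fold, and the neuronal dynamin Dnm1 rose 3.59-fold (limma adjusted p = 4.24e-05, 5.87e-05 and 0.00101). Another dynamin, Dnm3, and Bin1 fell 2.38-fold and 2.31-fold (limma adjusted p = 2.86e-04 and 3.79e-04). Picalm, the widely expressed relative of Snap91, went the other way from Snap91, at 1531 ± 113 in Sus-T and 3615 ± 372 in Res-T (2.36-fold lower, limma adjusted p = 4.06e-04).

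Of the Rab3 and Rab27 genes 2 of 9 were higher and 1 lower. Rab3c averaged 296 ± 61.4 in Sus-T and 61.5 ± 5.45 in Res-T (4.72-fold, limma adjusted p = 4.33e-04), and Rab3a 171.5 ± 31.6 in Sus-T and 87.5 ± 11.6 in Res-T (limma adjusted p = 0.0387). Both encode vesicle Rab proteins of the kind that the Madd protein activates. Rab3gap1, which encodes a subunit of the complex that switches Rab3 off, fell 1.82-fold (limma adjusted p = 0.00897), and Rab3b, at 8.03 ± 5.91 in Sus-T and 15.7 ± 3.11 in Res-T, did not pass (limma adjusted p = 0.266).

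**Figure D5:**
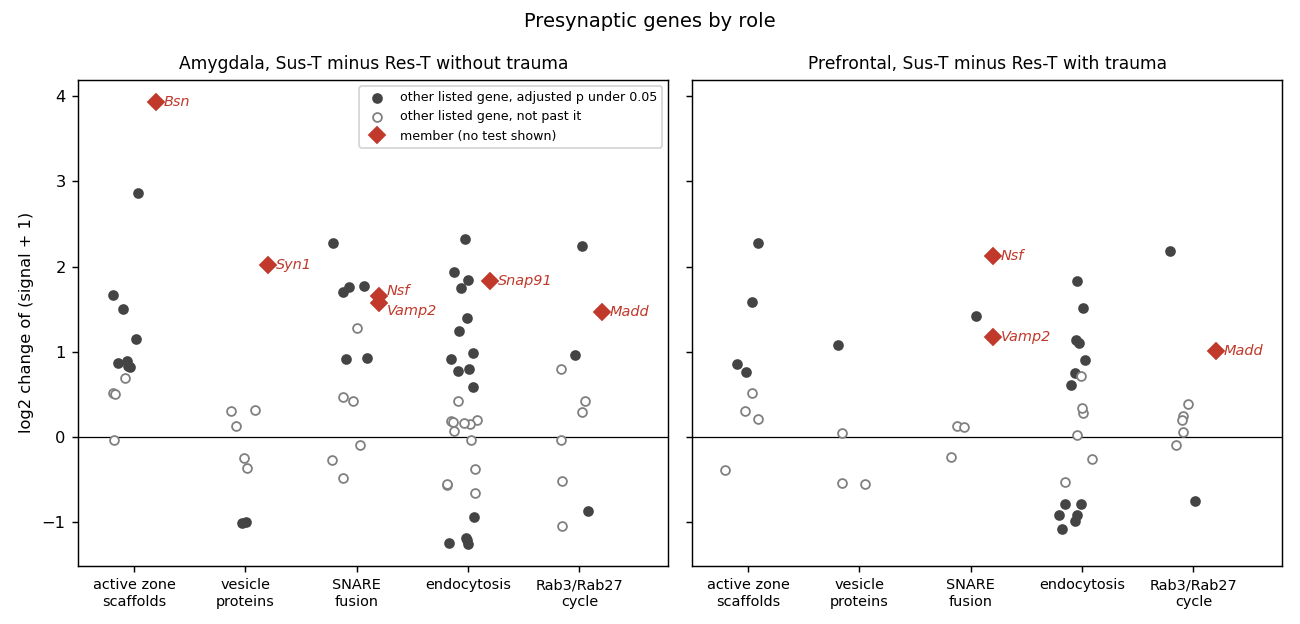
Log2 change of (signal + 1) (vertical axis) of listed presynaptic genes by role, in the amygdala for Sus-T minus Res-T without trauma and in the prefrontal cortex for Sus-T minus Res-T with trauma. Filled circles passed limma's adjusted p of 0.05, open circles did not, and red diamonds are the chosen genes. In the amygdala 8 of 12 scaffold genes are filled above 0 and none below it, while the endocytosis genes are filled on both sides.

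With trauma, 0 of the 68 listed amygdala genes passed between Sus-T and Res-T by limma, and 15 stood at an unadjusted p under 0.05, against 11.6% of all genes. Trauma in Res-T went with 9 genes higher and 2 lower, against 3.3% and 2.88% of all genes, and the split was 8 and 0 under quantile normalization. Ppfia4 averaged 71.9 ± 22.2 with trauma and 18.5 ± 8.16 without (limma adjusted p = 0.0124), and Rab3c 188 ± 51.9 with trauma and 61.5 ± 5.45 without (limma adjusted p = 0.0118). Stxbp5l rose 2.13-fold (limma adjusted p = 0.038), Epn1, Ap2a2 and Sh3gl2 rose 1.77-fold, 1.61-fold and 1.88-fold (limma adjusted p = 0.0164, 0.0164 and 0.0279), and Bin1 and Picalm fell 1.68-fold and 1.61-fold (limma adjusted p = 0.0186 and 0.0293). The 11 calls became 5 without Res-T with trauma replicate 3, and 1, 1 and 2 without Res-T without trauma replicates 1, 2 and 3.

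In Sus-T amygdala libraries trauma called 0 of the 68 genes by limma (6 at an unadjusted p under 0.05, against 11.8% of all genes), where 0.0203% and 0.0101% of all genes were called higher and lower. The difference between the trauma effects of Sus-T and Res-T passed for 6 of the 68, 2 higher and 4 lower, against 4.76% and 1.98% of all genes, and the split was 0 and 6 under quantile normalization. Oligodendrocyte markers were called higher for 17 of 19 in the same comparison. Without Sus-T without trauma replicate 1 the count was 0, without Sus-T with trauma replicate 1 it was 10, and without Res-T without trauma replicates 1, 2 and 3 it was 3, 2 and 3.

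In the prefrontal cortex 14 of 42 listed genes were higher and 7 lower in Sus-T with trauma than in Res-T with trauma, against 14% and 8.93% of all genes. The median log2 change of the list was 0.23, against 0.15 over all genes. Scaffold genes were higher in 4 of 8 and lower in 0, among them Unc13a, a vesicle priming factor (262 ± 115 in Sus-T and 80.7 ± 19.3 in Res-T, limma adjusted p = 0.00877), Pclo (1892 ± 396 in Sus-T and 1032 ± 138 in Res-T, limma adjusted p = 0.0192) and Lin7c (1.7-fold, limma adjusted p = 0.0444). Napg, the gamma SNAP that works with the protein of Nsf, rose 2.67-fold (limma adjusted p = 0.0123), while Napa averaged 447.5 ± 88.0 in Sus-T and 403 ± 29.4 in Res-T (limma adjusted p = 0.681).

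Prefrontal endocytosis genes again moved both ways, with 7 of 19 higher and 6 lower. Ap2a2 averaged 839.5 ± 120.4 in Sus-T and 292 ± 27.9 in Res-T (2.86-fold, limma adjusted p = 0.00129), Synj1, the phosphatase that uncoats vesicles, rose 2.15-fold (limma adjusted p = 0.00427), and Ap2s1 rose 3.55-fold (limma adjusted p = 0.0109). Itsn2, Picalm and Dnm3 fell 1.89-fold, 2.12-fold and 1.97-fold (limma adjusted p = 0.00402, 0.00513 and 0.00661). Scamp1 was the 1 of 4 vesicle protein genes that rose (2.11-fold, limma adjusted p = 0.0112), Rab3d rose 4.56-fold at low values of 27.7 ± 18.6 in Sus-T and 5.38 ± 3.80 in Res-T (limma adjusted p = 0.0319), and Rab3gap1 fell 1.68-fold (limma adjusted p = 0.0276). The 21 calls became 10, 9 and 12 without Res-T with trauma replicate 1, Res-T with trauma replicate 4 and Sus-T with trauma replicate 3.

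In the other prefrontal comparisons 0 of 42 listed genes passed by limma, with 8 at an unadjusted p under 0.05 between Sus-T and Res-T without trauma (10.4% of all genes), 6 for trauma in Res-T (14.8% of all genes), 0 for trauma in Sus-T (1.5% of all genes) and 4 for the difference between the trauma effects (6.1% of all genes). Without Res-T without trauma replicate 4, trauma in Res-T called 6 of them, all lower, against 7.29% of all genes called lower in the same fit.

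The genes whose profiles were most like each member were found from the root mean square difference of log2(signal + 1) over the 13 libraries of a region, after centring each gene on its own mean. Only genes with an official symbol were eligible, which left out predicted genes with Gm or Rik names. In the amygdala the closest were Celf5, Psd and Rap1gap2 for Bsn (0.37, 0.38 and 0.42 log2 units, against a median of 1.56 over all genes), Nudt19, Pkia and Pld3 for Syn1 (0.26, 0.28 and 0.28), and Ttc3, Btbd3 and Gnb1 for Vamp2 (0.20, 0.20 and 0.20). For Snap91 they were Ap2a2, Camta2 and Grk2 (0.18, 0.19 and 0.20, against a median of 0.74). For Nsf they were Calm3, Myh10 and Clvs2 (0.28, 0.30 and 0.31), and for Madd Tnpo2, Pms1 and Macrod2 (0.14, 0.20 and 0.20, against a median of 0.65). In the prefrontal cortex the closest were Uqcrh, Acap3 and Psmc5 for Vamp2 (0.19, 0.19 and 0.21), Slc25a39, Rab6b and Dtnb for Nsf (0.25, 0.25 and 0.26), and Dock3, Tsc22d1 and R3hdm2 for Madd (0.14, 0.16 and 0.16). Ap2a2 was thus the 1 gene of the presynaptic list among these neighbours, beside Snap91 in the amygdala. No named gene was a neighbour of a member in both regions, and only 5274 genes were measured in both.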

How the data were processed

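RNA-seq libraries were made from sorted cells with an ultra-low-input kit with removal of ribosomal RNA, per the labels' protocols. Per the submitters' processing notes, reads were handled with bcl2fastq 2.20 and Salmon 1.2 on GRCm38.p6. The deposited values are a signal per gene with 1 column per library. The authors had normalized them, by a method not given in the sources used here. A count-based test had been foreseen for counts, and limma was used because the values were not counts.

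The signal was analysed as log2(signal + 1) with limma 3.58.1 in R 4.3.3 (a linear model of 4 groups per region with 9 residual degrees of freedom, then empirical Bayes with trend and robust options). A minimum mean of 1 removed no gene. The p-values were adjusted by the Benjamini-Hochberg method over all genes of a region and comparison, with a threshold of 0.05. The pipeline was tested on simulated data, with independent normal noise around a common mean per gene and 100 genes changed by each size. Across comparisons it recovered 17% to 46% of simulated log2 changes of 1, and 68% to 83% of those of 2. A comparison with 0 calls can therefore miss changes of these sizes. The deposited values lack dimensions, and some comparisons called far more genes than were changed here, so recovery in the real data may differ. Cell-type markers are summed signal in percent of the library total. Groups came from the labels.

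The members and all gene lists were chosen with earlier results of these data known. Besides the members and their relatives, up to 3 rising and 3 falling genes per role with the smallest p past the threshold were named, except some that are not reported here; counts over the list include them. Alternatives were a pseudocount of 10, a minimum mean of 10, quantile normalization, empirical Bayes without trend or robust options, the replicate number as a block, the 2 compared groups alone, and leaving out each library. Sequences came from RefSeq.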

Additional observations from a re-analysis of the deposited data

Results flagged for a closer look

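Of 42 groups of 4 libraries examined, over the members and the marker lists, 4 held a library far from the others, where chance gives about 1 in 20; the values are the gap to the nearest library over the range of the group. They were Madd in prefrontal Sus-T with trauma (0.903), oligodendrocyte precursor markers in amygdala Sus-T with trauma (0.911), oligodendrocyte markers in prefrontal Res-T without trauma (0.882) and oligodendrocyte markers in prefrontal Sus-T with trauma (0.892).

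The amygdala trauma effects on Snap91 had opposite signs, lower in every Sus-T library and higher in every Res-T library with trauma; their difference was −1.47 on the log2 scale and was not tested, since Snap91 was chosen with these libraries in view. Among the other presynaptic genes reported here, limma's test of that difference passed for Ap2a2 (−1.16, adjusted p = 0.00851), Epn1 (−1.21, adjusted p = 0.0173), Picalm (1.07, adjusted p = 0.0253), Sh3gl2 (−1.39, adjusted p = 0.0258) and Syt11 (0.91, adjusted p = 0.0332). Without Sus-T without trauma replicate 1 none of these 5 passed (limma adjusted p between 0.0667 for Ap2a2 and 0.205 for Syt11). Under quantile normalization Picalm (0.64, limma adjusted p = 0.0941) and Syt11 (0.36, limma adjusted p = 0.362) did not pass, and without trend or robust options Sh3gl2, Picalm and Syt11 did not pass (limma adjusted p = 0.0556, 0.0662 and 0.0763). Single omissions of Res-T libraries without trauma also ended the calls of Sh3gl2 (3 of 3), Picalm (2 of 3) and Syt11 (2 of 3), and that of Syt11 ended without Res-T with trauma replicate 3 or Sus-T with trauma replicates 2 or 4.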

How the results depend on the processing

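Over the 5 comparisons of each region, 56 of 58 counts of listed genes were equal to or within 1.5 times their value under alternatives that kept all libraries. Counts that were 0 and stayed 0 are among these 56. Totals were compared, whatever the split into higher and lower. The counts outside that range came from empirical Bayes without trend or robust options, which gave 6 calls for amygdala trauma in Res-T (11 in the report) and 2 for the difference between the amygdala trauma effects (6). Leaving out single libraries gave from 22 to 32 calls for amygdala Sus-T minus Res-T without trauma (35 with all), from 1 to 10 for amygdala trauma in Res-T, from 0 to 10 for the difference between the amygdala trauma effects, from 9 to 18 for prefrontal Sus-T minus Res-T with trauma (21) and from 0 to 6 for prefrontal trauma in Res-T (0). Among members, 13 of 612 values changed sign, in results whose log2 change with all libraries was at most 0.14 in size. Madd in prefrontal Sus-T minus Res-T without trauma (0.02) was −0.03 under quantile normalization and −0.032 with the replicate block, and ran from −0.257 to 0.24 over single omissions. For trauma in Sus-T, single omissions gave from −0.092 to 0.375 for Syn1 and from −0.333 to 0.141 for Nsf in the amygdala, and from −0.276 to 0.018 for Vamp2 and from −0.027 to 0.202 for Nsf in the prefrontal cortex. Replicate numbers gave no sign of pairing the libraries: deviations of same-numbered libraries correlated between −0.45 and 0.16 for the amygdala and between −0.4 and 0.35 for the prefrontal cortex, with 3 of 16 pairs over 0.1 in each. In groups of 2 libraries the deviations mirror each other, and the values lack dimensions. The check therefore cannot exclude pairing by replicate number. With the number as a replicate block, 34 listed amygdala genes were called between untraumatised Sus-T and Res-T mice and 0 between traumatised ones, 12 for the trauma effect in Res-T and 0 for that in Sus-T mice, and 4 for the difference of these effects, while in the prefrontal cortex 19 were called between traumatised Sus-T and Res-T mice and 0 in each other comparison; the block brought Bsn in amygdala Sus-T minus Res-T with trauma past the threshold (log2 1.66, limma adjusted p = 0.0291) and changed no other member's call. The cause of these changes was not tested, beyond the smaller number of libraries where one was left out. With 2 Sus-T libraries without trauma in each region, leaving out one assumes that the other varies like the remaining groups. Read depth is unknown, so what depth limits could not be set.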
